A study of Mus musculus with 4 samples.

Results

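The aminoacyl-tRNA synthetases were examined in thioglycollate-elicited peritoneal macrophages of mice on a control or a high-fat diet. The 36 genes were chosen by name, 20 for cytosolic enzymes and 16 for mitochondrial enzymes (symbols ending in 2). Each symbol matched 1 of the 24625 genes counted, and all 36 passed the filter on low counts that 12747 genes passed. All groups were C57BL/6 mice (C57BL/6J in the design text). The control group ate standard chow, and the high-fat group a diet with 60% of its energy from fat. Feeding lasted 12 weeks, and every mouse also received 3% thioglycollate medium by intraperitoneal injection 4 days before the cells were collected, so no group holds resident, unstimulated macrophages. The labels do not state the age or sex of the mice, or whether a library came from 1 mouse or a pool. Each diet had 2 libraries, and p-values measure only the spread between these libraries, which may be technical.

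An aminoacyl-tRNA synthetase joins an amino acid to its matching tRNA and so supplies the ribosome. Cytosolic and mitochondrial translation mostly use separate sets of these enzymes, both encoded in the nucleus. Gars and Kars are exceptions, since each gene encodes both forms. Eprs encodes a fused enzyme for glutamate and proline, and Farsa and Farsb encode the subunits of a single cytosolic enzyme for phenylalanine. When amino acids run short, uncharged tRNA activates the kinase GCN2 (Eif2ak4). Phosphorylated eIF2 then favours translation of the transcription factor ATF4, which is known to raise transcription of Asns and of many cytosolic synthetase genes.

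Gene totals were 39347347 to 45658551 counts per library, of which the 36 synthetase genes took 0.208% to 0.256%. The macrophage marker genes Cd68 (1064 ± 91.1 CPM in controls and 1170 ± 98.6 CPM in high-fat libraries; SD, n = 2 each; CPM, counts per 1e6 scaled gene counts) and Lyz2 (22512 ± 591 and 18697 ± 3250 CPM) were abundant in both diets. Of the 9 measured macrophage markers of 10 listed, 8 had a log2 fold change below 0 (median -0.18), and Mertk fell from 60.1 and 58.7 CPM to 40.6 and 32.9 CPM (-0.69 ± 0.12, adjusted p = 0.0449 by edgeR). Markers of other cells also stood at different levels. The 12 measured mesothelial and fibroblast markers of 15 listed summed to 21.0 to 28.4 CPM with control diet and 86.8 to 173 CPM with high-fat diet, and none of the listed genes in the count tables was at 0 in all libraries. Lum was called higher (2.77 ± 0.41, adjusted p = 0.0310 by edgeR), from 8 and 9 counts with control diet and 83 and 47 with high-fat diet. It passed the filter on low counts only through the high-fat libraries, as did Wt1 and Lrrn4. Its call is thus no separate support for the difference in the sum. The 7 measured neutrophil markers of 12 summed to 87.2 to 91.5 and 54.3 to 57.7 CPM, with Elane at 0 in every library. Mmp9 fell with a log2 fold change of -1.48 ± 0.18 (adjusted p = 0.0161 by edgeR) and Csf3r with -0.69 ± 0.12 (adjusted p = 0.0476). These genes supplied most of the difference in the sum, with means of 19.8 and 7.13 CPM (Mmp9) and 41.0 and 25.4 CPM (Csf3r). Of the 7 markers 4 were lower in both high-fat libraries, against 24.9% of all genes, and S100a8, S100a9 and Cxcr2 overlapped between the diets. The 12 measured B cell and plasma cell markers of 14 summed to 491 to 511 and 614 to 635 CPM. Most of that sum came from Sdc1 and Xbp1, which macrophages can also express. The plasma cell gene Igj rose from 0.596 and 1.21 CPM to 3.66 and 3.05 CPM (1.90 ± 0.34, adjusted p = 0.0476 by edgeR). Some B cell genes were highest in high-fat replicate 2: Ms4a1 was at 79.0 CPM there and at 26.6 to 29.3 CPM in the other libraries, and Cd79b at 43.5 and 17.5 to 20.3 CPM. The B cell gene Cd22 went the other way, at 59.8 and 53.1 CPM with control diet and 48.2 and 40.9 CPM with high-fat diet. The part of these cells in the synthetase values was not tested. In bulk RNA a change in the number of cells of a type and a change in RNA per cell cannot be told apart.

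No synthetase gene passed the test of diet over all genes. In edgeR's quasi-likelihood test with Benjamini-Hochberg adjustment, 0.322% of all genes were called higher and 0.290% lower with high-fat diet at an adjusted p of 0.05. None of the 20 cytosolic and none of the 16 mitochondrial genes was among them, and DESeq2 called none either (1.22% of its genes higher, 1.52% lower). The smallest adjusted p of any synthetase was 0.130, for Nars. At an unadjusted p of 0.05, 10 cytosolic genes were higher and 0 lower, where 8.56% of all genes were higher and 8.46% lower. Of the mitochondrial genes 0 were higher and 0 lower at that level. Most mitochondrial genes had lower counts and larger standard errors, so these counts do not compare genes of equal precision. Yars2, for example, had a log2 fold change of 0.25 (SE 0.14, unadjusted p = 0.0951 by edgeR). Eprs had 0.24 (SE 0.09, unadjusted p = 0.0281 by edgeR).

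The cytosolic genes leaned in 1 direction and the mitochondrial genes did not. The log2 fold change, high-fat over control, was above 0 for 17 of 20 cytosolic genes and 8 of 16 mitochondrial genes, and for 49.2% of all genes. Its median was 0.22 over the cytosolic genes, -0.0100 over the mitochondrial genes and -0.0054 over all kept genes. Both high-fat libraries lay above both control libraries for 13 cytosolic and 4 mitochondrial genes, against 26.1% of all genes. Both lay below for 1 cytosolic and 3 mitochondrial genes, against 24.9% of all genes. The genes of a list are not independent replicates, and the difference between the lists has no test here.

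**Figure D1:**
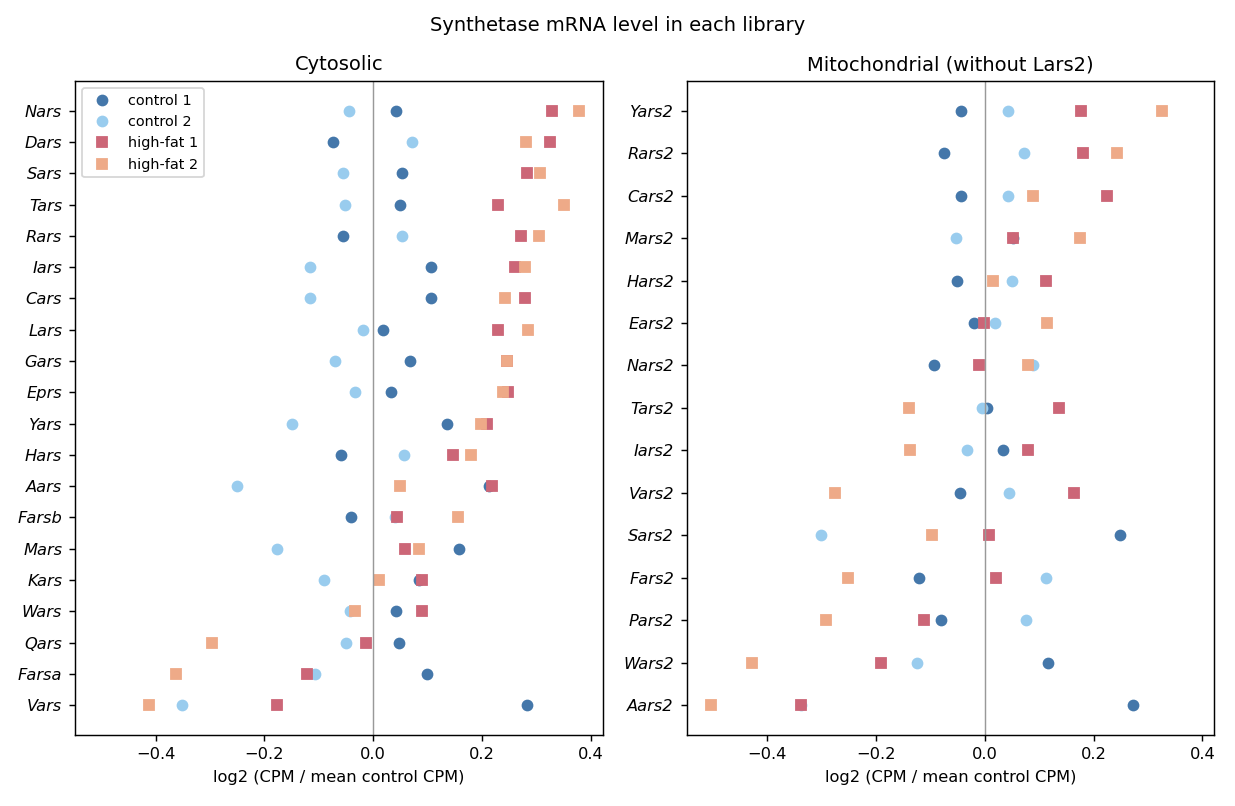
Each point is the log2 ratio of a gene's CPM in 1 library (2 control, 2 high-fat) to its mean control CPM, for the cytosolic genes on the left and the mitochondrial genes on the right; Lars2 is left out because its values are far off this scale. The high-fat points lie to the right of both control points for 13 cytosolic genes and 4 mitochondrial genes.

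The shared lean is visible in the summed level of each library. The 20 cytosolic genes together held 1918 and 1823 CPM in control replicates 1 and 2, and 2184 CPM in each of the high-fat replicates, a ratio of the diet means of 1.17. The diets did not overlap. The mitochondrial genes without Lars2 summed to 217 and 221 CPM in the control replicates and to 232 and 217 CPM in the high-fat replicates, so the diets overlapped. With 2 libraries in each diet an exact permutation test of such a sum cannot go below p = 0.333.

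Asparaginyl-tRNA synthetase, Nars, had the highest log2 fold change. It stood at 223 and 210 CPM in control replicates 1 and 2 and at 272 and 281 CPM in high-fat replicates 1 and 2. Both high-fat values were thus above both control values, by 27.8% on the fitted scale (log2 fold change 0.35 ± 0.10 SE, adjusted p = 0.130, edgeR quasi-likelihood test). Across the alternative fits its adjusted p ran from 0.0563 with DESeq2 to 0.371.

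Sars, which charges serine tRNA and also the tRNA for selenocysteine, stood at 71.4 and 66.3 CPM with control diet and 83.8 and 85.3 CPM with high-fat diet. Its log2 fold change was 0.30 ± 0.09 (adjusted p = 0.179 by edgeR). In the deposited models it is transcribed from the minus strand at chromosome 3: 108227782 to 108248177 (mm9), in 12 exon blocks. Threonyl-tRNA synthetase, Tars, stood at 85.8 and 79.9 and then 97.1 and 106 CPM (log2 fold change 0.29). For both genes the diets did not overlap, as for 26.1% of all genes in this direction.

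The enzymes of the multisynthetase complex, in which 8 cytosolic synthetase genes are represented, gave 5 of the 10 genes at an unadjusted p of 0.05. At that p 8.56% of all genes were higher. The rest of the 10 genes, Nars, Sars, Tars, Gars and Cars, lay outside the complex. The median of the log2 fold changes of the 8 complex genes was 0.25, close to 0.22 over all 20 cytosolic genes. Aspartyl-tRNA synthetase, Dars, stood at 155 and 172 CPM with control diet and 205 and 199 CPM with high-fat diet (log2 fold change 0.30 ± 0.10, adjusted p = 0.184 by edgeR). Rars, for arginine, stood at 162 and 175 and then 204 and 209 CPM (0.29 ± 0.10). These 2 genes and the 3 that follow were separated by diet, as were 26.1% of all genes in this direction.

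Lars, the leucine enzyme that also acts as a leucine sensor for mTORC1, stood at 133 and 130 CPM with control diet and 154 and 160 CPM with high-fat diet (log2 fold change 0.26). Iars, for isoleucine, stood at 98.8 and 84.7 and then 110 and 111 CPM (0.27), and Eprs at 236 and 226 and then 274 and 273 CPM (0.24). The other complex members, Kars, Mars and Qars, overlapped between the diets, with log2 fold changes of 0.051, 0.071 and -0.15. The scaffold genes of the complex did not pass the same test with all libraries. Eef1e1 (AIMP3) stood at 73.6 and 90.8 CPM with control diet and 96.2 and 111 CPM with high-fat diet (0.34 ± 0.12, adjusted p = 0.232 by edgeR). Leaving out each library, its log2 fold change ran from 0.19 to 0.50. Aimp1 and Aimp2 had log2 fold changes of 0.056 and 0.051.

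Outside the complex, Gars and Cars completed the 10 genes at an unadjusted p of 0.05. Gars, for glycine, stood at 112 and 102 CPM with control diet and 127 CPM in both high-fat libraries (log2 fold change 0.25). Cars, for cysteine, stood at 55.3 and 47.3 and then 62.3 and 60.7 CPM (0.26). Yars and Hars, for tyrosine and histidine, had diet-separated libraries with log2 fold changes of 0.20 and 0.16, and did not reach an unadjusted p of 0.05. Aars (0.14) and Wars (0.030) overlapped between the diets. Genes described in this and the following paragraph, beyond those the naming rule picks, were named after their values were seen.

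The 3 cytosolic genes below 0 were Vars, Farsa and Qars. Valyl-tRNA synthetase, Vars, stood at 9.24 and 5.95 CPM with control diet and 6.72 and 5.71 CPM with high-fat diet, where control replicate 1 stood apart and the diets overlapped (log2 fold change -0.29 ± 0.22). Farsa, the alpha subunit for phenylalanine, stood at 20.7 and 17.9 and then 17.7 and 15.0 CPM, separated by a narrow margin (-0.24 ± 0.14, adjusted p = 0.425). Its partner Farsb stood at 119 and 126 and then 127 and 137 CPM (0.10 ± 0.10). Per exon length, Farsb was 4.16 to 6.57 times as abundant as Farsa in the 4 libraries, although the protein holds both subunits in equal number.

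**Figure D2:**
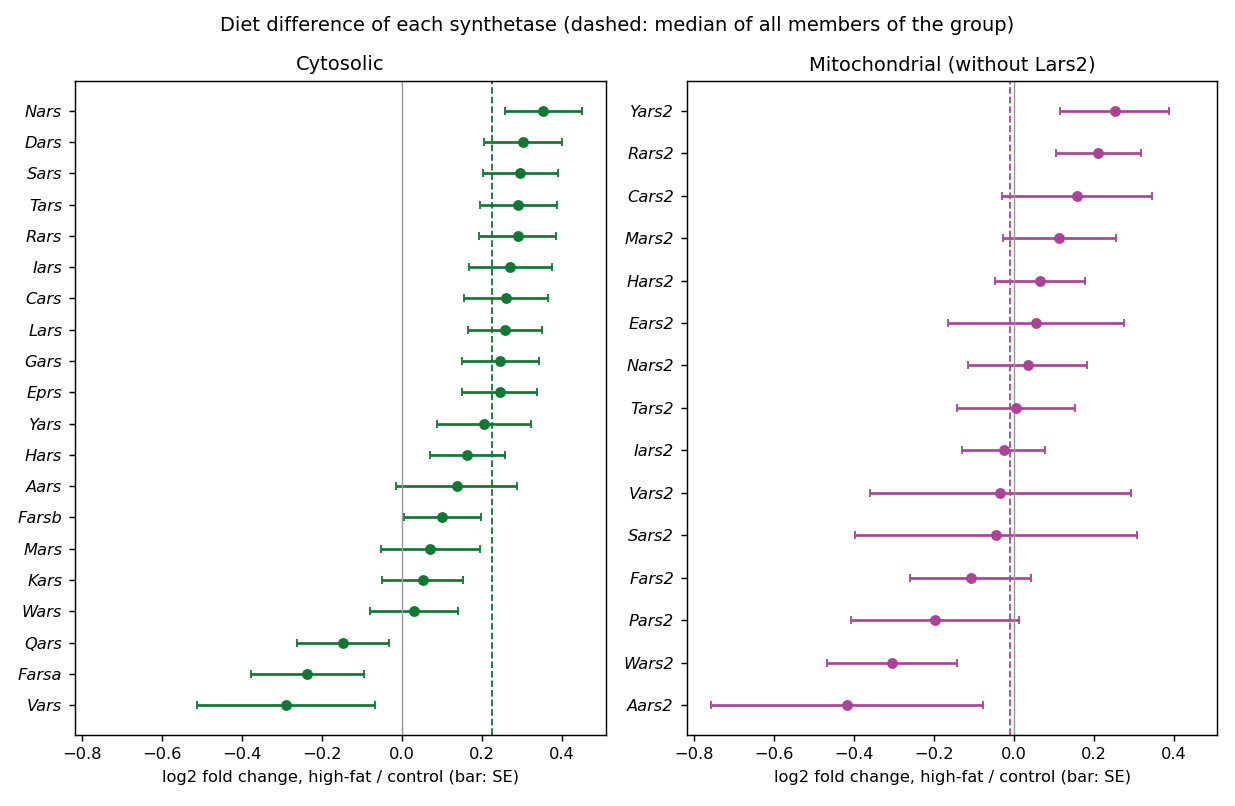
Points give the log2 fold change, high-fat over control, of each cytosolic gene (left) and mitochondrial gene (right), with bars for 1 SE; the dashed line is the median of the group, and Lars2 (-1.78) is left out of the drawing but not of the median. The cytosolic median is 0.22 and the mitochondrial median -0.0100, and no gene passed the adjusted threshold.

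Among the mitochondrial enzymes 3 genes had the smallest p. Rars2, for arginine, stood at 31.1 and 34.4 CPM with control diet and 37.1 and 38.8 CPM with high-fat diet (log2 fold change 0.21 ± 0.11, adjusted p = 0.341 by edgeR). Yars2, for tyrosine, stood at 12.4 and 13.2 and then 14.5 and 16.04 CPM (0.25 ± 0.14). Wars2, for tryptophan, lay in the other direction at 11.4 and 9.61 and then 9.18 and 7.78 CPM (-0.30 ± 0.16). Each of these was separated by diet, with 2 above and 1 below the controls. Of all genes 26.1% were separated above and 24.9% below.

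Aars2 and Pars2 were lower in both high-fat libraries, at low levels. Aars2, the mitochondrial alanine enzyme, stood at 1.42 and 0.927 CPM with control diet and 0.926 and 0.826 CPM with high-fat diet (log2 fold change -0.42 ± 0.34), so control replicate 2 and high-fat replicate 1 were all but equal. Pars2, for proline, stood at 3.30 and 3.68 and then 3.23 and 2.85 CPM (-0.20 ± 0.21). The differences were within 1.5 standard errors. Cars2 and Mars2 lay above the controls in both high-fat libraries, with log2 fold changes of 0.16 and 0.11. The diets overlapped in Ears2, Fars2, Hars2, Iars2, Nars2, Sars2, Tars2 and Vars2, with log2 fold changes from -0.11 (Fars2) to 0.065 (Hars2).

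Lars2, the mitochondrial leucine enzyme at chromosome 9: 123276058 to 123371782 (mm9, plus strand, 21 exon blocks), varied more than any other synthetase. It stood at 400 and 68.0 CPM in control replicates 1 and 2 and at 30.7 and 106 CPM in high-fat replicates 1 and 2. Control replicate 1 was the highest, control replicate 2 lay between the high-fat libraries, and the log2 fold change was -1.78 ± 1.44 (adjusted p = 0.618 by edgeR). Without control replicate 1 it was 0.0050.

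Lars2 moved with Rn45s, the gene of the ribosomal RNA precursor, from which rRNA depletion is meant to free a library. Rn45s had 141315, 17981, 12141 and 32816 counts in the same order of libraries, and Lars2 had 16121, 2639, 1427 and 4238. The Lars2 count was thus 11.4%, 14.7%, 11.8% and 12.9% of the Rn45s count. The part of ribosomal RNA reads in the Lars2 value was not tested. With Lars2 the mitochondrial genes summed to 618 and 289 CPM in the control replicates and to 263 and 323 CPM in the high-fat replicates, so this 1 gene sets the order of those sums.

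**Figure D3:**
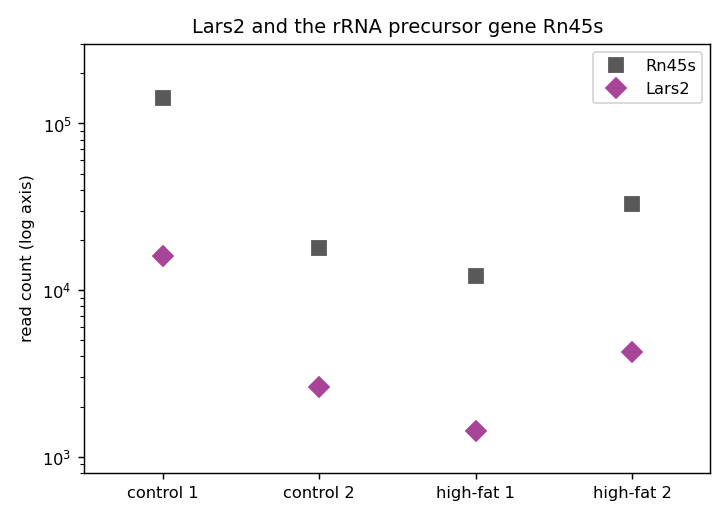
Read counts (log axis) of Lars2 and of the ribosomal RNA precursor gene Rn45s in each of the 4 libraries. Both are highest in control replicate 1 and lowest in high-fat replicate 1, and Lars2 is 11.4% to 14.7% of Rn45s throughout.

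Levels per length separated the compartments more than diet did. In CPM per kilobase of exon (RPKM), averaged over the 4 libraries, the cytosolic genes had a median of 27.6 and ran from 1.63 (Vars) to 93.0 (Nars). The mitochondrial genes had a median of 2.71 and ran from 0.223 (Vars2) to 39.0 (Lars2), with 21.1 (Iars2) the highest without Lars2. Nars, Rars (88.0 RPKM), Dars (72.8), Eprs (52.0) and Farsb (50.1) were the 5 highest. The library ranges of neighbours in this order overlapped for Nars and Rars, for Rars and Dars and for Eprs and Farsb. Those of Dars (61.9 to 81.7 RPKM) and Eprs (46.5 to 56.5 RPKM) did not. Compared within each library, Rars lay above Dars in all 4. Nars lay below Rars, and Eprs below Farsb, in control replicate 2.

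Pairing the enzymes for the same amino acid gave 17 pairs over 16 mitochondrial genes, with Eprs and Fars2 each used in 2 pairs. The cytosolic level per length was the higher in every library in 15 pairs. The ratio of mean RPKM was 90.5 for Aars over Aars2, 49.2 for Eprs over Pars2, 46.9 for Sars over Sars2, 36.6 for Eprs over Ears2 and 35.2 for Nars over Nars2. At the other end it was 1.52 for Yars over Yars2 and 1.19 for Farsa over Fars2. The 2 exceptions were Iars over Iars2, at 0.925 to 1.31 across libraries, and Lars over Lars2, at 0.340 to 5.12. In 13 of the 17 pairs the cytosolic log2 fold change with diet was above that of its mitochondrial partner. Some of these differences were below the standard errors, such as 0.077 for Rars and Rars2 (SE 0.10 and 0.11). The largest, 2.04 for Lars and Lars2, had an SE of 1.44 for Lars2. The pair differences were not tested.

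**Figure D4:**
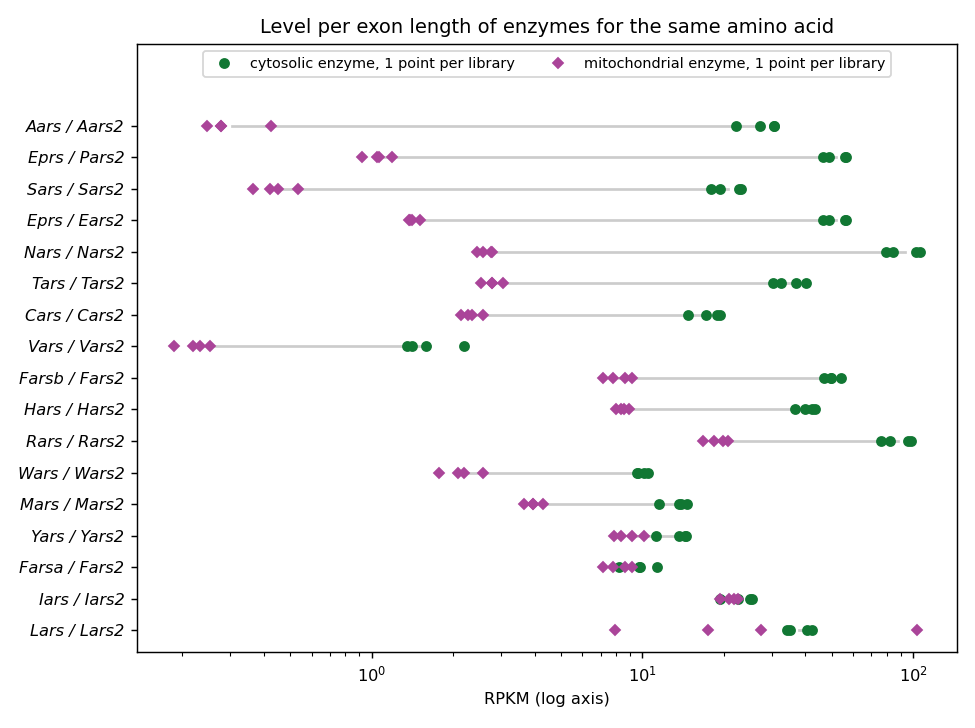
RPKM (log axis) of the cytosolic and the mitochondrial enzyme for the same amino acid, 1 point per library and 17 pairs ordered by the ratio of means. In 15 pairs every cytosolic value exceeds the mitochondrial value of the same library; Iars with Iars2 and Lars with Lars2 do not.

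Hars and Hars2 are the one pair of neighbours. In the deposited mm9 models they lie head to head on chromosome 18, with 75 bases between their starts. Hars stood at 73.0 and 79.1 CPM with control diet and 84.1 and 86.1 CPM with high-fat diet, and Hars2 at 24.4 and 26.2 and then 27.4 and 25.6 CPM (log2 fold changes 0.16 ± 0.09 and 0.065 ± 0.11). A start on the opposite strand within 1000 bases upstream was found for 4 of 20 cytosolic and 5 of 16 mitochondrial genes, against 9.30% of all RefSeq genes in the models. The exons of Mars overlap those of Ddit3 on the other strand by 68 bases, Farsb those of Sgpp2 by 265, Iars2 those of Rab3gap2 by 85 and Yars those of C77080 by 30. The labels do not say if reads were assigned by strand, so these 4 values are uncertain to that extent.

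The genes commonly listed as ATF4 targets can be set beside the other cytosolic synthetases. A list of 13 targets had 12 log2 fold changes above 0, a median of 0.25 and 8 genes at an unadjusted p of 0.05. The other 7 had 5 above 0, a median of 0.10 and 2 such genes (Dars and Rars). Over all genes 49.2% were above 0 and 8.56% were higher at an unadjusted p of 0.05. Asns is the asparagine synthetase and reference gene of this response. It stood at 68.7 and 62.9 CPM with control diet and 129 and 132 CPM with high-fat diet. It was the 1 gene of the 30 measured in the amino acid response list to pass over all genes, of which 0.322% were called higher (log2 fold change 0.99 ± 0.10, adjusted p = 0.00623 by edgeR). Without control replicate 2 its adjusted p was 0.0504. Atf4 itself stood at 281 and 272 and then 332 and 328 CPM (0.26 ± 0.09, adjusted p = 0.231).

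Of the 30 measured genes of the amino acid response, 22 had a log2 fold change above 0, against 49.2% of all genes. Their median was 0.22. Phgdh, the entry enzyme of serine synthesis, and Mthfd2, a mitochondrial folate enzyme, had values of 0.58 ± 0.16 and 0.44 ± 0.12 and missed the threshold (adjusted p = 0.145 and 0.151 by edgeR). They passed in 1 alternative fit that kept all libraries, the one with no filter on low counts (adjusted p = 0.0450 and 0.0317 by edgeR). That fit called 522 genes. Leaving out each library, the log2 fold change ran from 0.39 to 0.78 for Phgdh and from 0.29 to 0.57 for Mthfd2. Xpot, the exporter of tRNA from the nucleus, had 0.30 ± 0.10. Members lay below 0 as well. Atf3, a stress-induced transcription factor, was the 1 member lower at an unadjusted p of 0.05, at 595 and 594 CPM with control diet and 467 and 527 CPM with high-fat diet (-0.26 ± 0.11, adjusted p = 0.272 by edgeR). Ddit3 (CHOP), at 19.5 and 18.7 and then 16.5 and 15.7 CPM, was lower in both high-fat libraries (-0.24 ± 0.12), with the doubt of its overlap with Mars. Slc7a11, the cystine transporter, had -0.26 ± 0.20. Phgdh, Mthfd2, Atf3, Ddit3 and Slc7a11 were chosen after their values were seen.

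The promoters of several cytosolic genes hold the letters of the element that ATF4 is known to bind with C/EBP factors. RefSeq promoters on GRCm38.p6, from 250 bases before to 50 bases after the start, were found for 12 cytosolic and 14 mitochondrial genes. The cytosolic genes Nars, Rars, Lars, Cars, Hars, Mars, Vars and Wars had none and were not searched. The core TGATGNAA was sought on both strands. It was present in 5 of the 12 cytosolic promoters (Aars, Gars, Iars, Tars and Yars), in 0 of the 14 mitochondrial promoters, and in 4.51% of the 27025 genes of the table. The windows below show the core before the start in 3 of them and in Asns. They cover 60 bases on the strand of the gene, with the core in capitals (its reverse complement in the 3 synthetases).
Aars, chr8:111033704-111033763, plus strand: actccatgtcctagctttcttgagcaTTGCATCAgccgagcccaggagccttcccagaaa
Gars, chr6:55037941-55038000, plus strand: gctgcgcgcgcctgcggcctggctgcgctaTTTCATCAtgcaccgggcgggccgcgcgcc
Tars, chr15:11399659-11399718, minus strand: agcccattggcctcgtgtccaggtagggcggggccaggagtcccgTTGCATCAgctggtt
Asns, chr6:7693210-7693269, minus strand: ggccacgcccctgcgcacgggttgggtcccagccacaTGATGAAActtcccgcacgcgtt

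The core began at base -112 in Aars, -30 in Gars, -15 in Tars and -23 in Asns, counted from the start. In Iars, Yars and, as an added copy, Aars it began at bases 8, 4 and 10 after the start. None of these overlapped the NRF1 site (GCGCA, any base, then GCGC), which was present in 3 of 12 cytosolic promoters, 2 of 14 mitochondrial promoters and 5.19% of the table. The 5 genes with the core had log2 fold changes of 0.14 (Aars), 0.25 (Gars), 0.27 (Iars), 0.29 (Tars) and 0.20 (Yars). Of the matched genes without it, Dars (0.30), Sars (0.30) and Eprs (0.24) had values as large. Farsb (0.10) and Kars (0.051) had smaller ones, and Farsa (-0.24) and Qars (-0.15) lay below 0. A match is a description of these letters and not a measured binding site.

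The diet difference of the cytosolic genes varied with their GC content. The 10 genes of lower transcript GC (44.3% to 50.4%) had a median log2 fold change of 0.26, and the 10 of higher GC (51.3% to 60.9%) 0.061. The 3 genes below 0 had GC contents of 60.9% (Vars), 56.6% (Farsa) and 52.4% (Qars). All kept genes showed the same order: of 4 equal bins of GC, the lowest had a median of 0.12 and the highest -0.18. Across the 20 cytosolic genes Pearson's r between GC and log2 fold change was -0.72 and Spearman's rho -0.62. Across 12148 genes they were -0.26 and -0.38. These are descriptions across genes of the same 4 libraries, and genes are not independent replicates.

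With the trends of GC content and of exon length removed from each library, the cytosolic median was 0.19 and the mitochondrial median -0.015. At an unadjusted p of 0.05, 12 cytosolic genes were then higher and 0 lower (9.67% and 8.47% of all genes). Aars went from 0.14 to 0.31, Sars from 0.30 to 0.37 and Vars from -0.29 to 0.052, while Dars went from 0.30 to 0.18 and Rars from 0.29 to 0.17. The 13 listed ATF4 targets had a median of 0.24 and the other 7 a median of 0.025. No synthetase passed over all genes in this fit either, and the smallest adjusted p was 0.0639 for Sars.

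**Figure D5:**
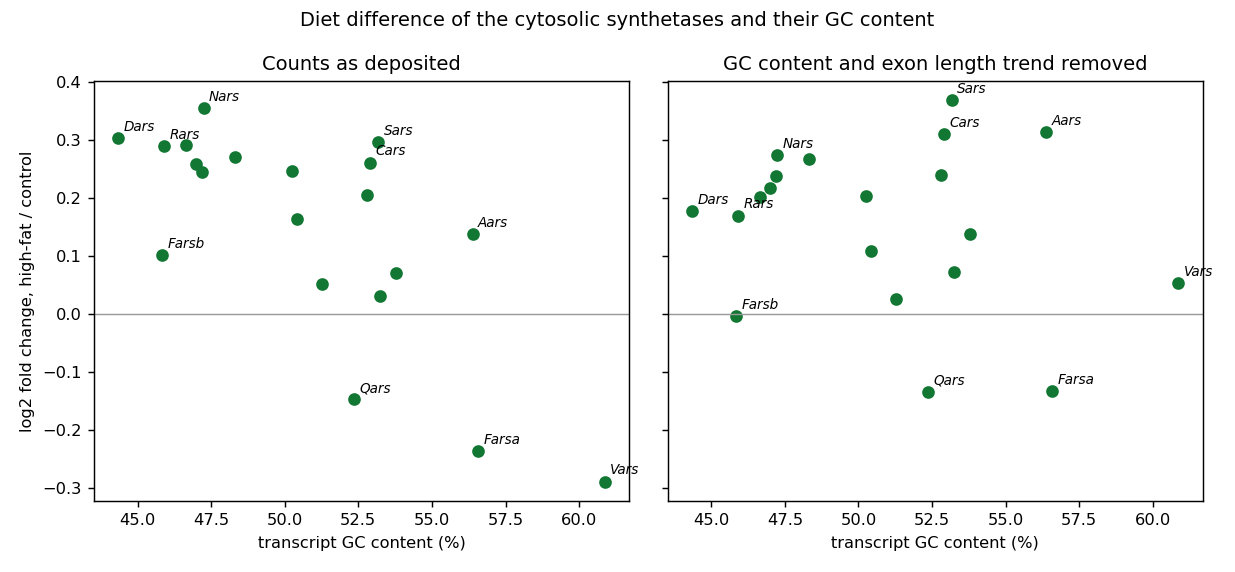
Log2 fold change, high-fat over control, of the 20 cytosolic genes against transcript GC content, with counts as deposited (left) and after correction for GC content and exon length (right). On the left the lowest GC (Dars) is at 0.30 and the highest (Vars) at -0.29, and on the right Vars is at 0.052 and Aars at 0.31.

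With all libraries, genes acting next to the synthetases gave no call over all genes in any of the 6 other lists. Among the genes named from them, Trmt10c alone passed in an alternative fit that kept all libraries. In the mitochondrial pathway that makes glutamine tRNA from glutamate tRNA, Gatc, Qrsl1 and Gatb had log2 fold changes of 0.37, 0.17 and -0.080. Of 12 mitochondrial translation factors 9 were above 0, with a median of 0.15, led by Mtfmt (0.29), the initiation factor Mtif2 (0.25 ± 0.10) and the elongation factor Gfm1 (0.23 ± 0.10). Of 32 measured tRNA maturation genes 21 were above 0, with a median of 0.11. Over all genes 49.2% were above 0. Trmt10c, a subunit of mitochondrial RNase P, stood at 56.4 and 63.1 CPM with control diet and 75.9 and 80.7 CPM with high-fat diet (0.39 ± 0.10, adjusted p = 0.112 by edgeR, and 0.0370 with no filter on low counts). Rpp30 had 0.33 ± 0.11.

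Of the 7 genes in the list of cytosolic elongation, 2 had a log2 fold change above 0, and the median of -0.026 was close to that of all genes. Eef2, the translocation factor, stood at 425 and 307 CPM with control diet and 287 and 240 CPM with high-fat diet (log2 fold change -0.48 ± 0.16, adjusted p = 0.220 by edgeR). Leaving out each library, its log2 fold change ran from -0.69 to -0.23. Eif5a and Eef1a1 had -0.12 and -0.16. In the list of eIF2 and its kinases, Eif2s1, the alpha subunit that the kinases phosphorylate, had 0.33 ± 0.11, Eif2ak2 0.22 ± 0.11 and Gcn1l1, the activator of GCN2, -0.50 ± 0.22. At an unadjusted p of 0.05, where 8.56% of all genes were higher and 8.46% lower, the genes higher were 1 of 3 (complex scaffold), 1 of 3 (glutamine tRNA), 2 of 12 (mitochondrial factors), 8 of 32 (tRNA maturation), 0 of 7 (elongation) and 1 of 6 (eIF2 and kinases). The 1 gene lower was Eef2.

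The counts of cytosolic genes depended on single libraries. At an unadjusted p of 0.05, 9 were higher without control replicate 1, 4 when control replicate 2 was left out (with 1 lower), and 5 and 2 when high-fat replicates 1 and 2 were left out in turn. In the same fits 4.50%, 8.53%, 9.13% and 4.88% of all genes were higher and 4.86%, 9.18%, 10.2% and 6.72% lower. With all libraries 8.56% of all genes were higher, so this share did not move in step with the cytosolic count. Among these fits the share was lowest without control replicate 1, where the cytosolic count was highest. The number above 0 was 18, 13, 16 and 17 in the same order, and the median stayed between 0.16 and 0.26.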

How the data were processed

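Total RNA was rRNA-depleted and sequenced in paired reads, per the labels' protocols. The authors deposited unnormalized counts of reads for every gene, with a table for each library. HTSeq, Cufflinks 2.1.1, TopHat2 2.0.10 and build mm9 appear, without order or settings, per the submitters' processing notes. The 5 summary lines (not unique 37.5% to 48.5%, no gene 13.5% to 15.0%, ambiguous 0.664% to 0.823%) were left out. Replicates differed far beyond sampling noise (chi-square per degree of freedom 27.7 and 28.9), so each counted once.

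Genes were kept by filterByExpr (minimum count 10, total 15) and fitted with edgeR 4.0.16 (R 4.3.3; TMM, robust quasi-likelihood, diet as the only term), adjusted by Benjamini-Hochberg over all 12747 genes. CPM use TMM-scaled totals, and each SE was taken from the F statistic (absolute log2 fold change over root F). RPKM divide CPM by merged exon length of the deposited models. GC content came from GENCODE transcripts matched by accession. DESeq2 1.42.0 and limma 3.58.1 (voom) were alternatives. Only the main edgeR fit was tested on simulated data, with changes larger than those of the cytosolic genes. The alternative fits and the promoter search were not.

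The synthetases and all lists were chosen with earlier results of these data known. Values are given for each list member past the threshold or, failing that, for the 8 cytosolic and 6 mitochondrial genes, and the 3 genes of each other pathway list, with the smallest p. Asns and Atf4 are always named. Further lists checked only as markers were T and NK cells (summed 4.15 and 4.84 CPM with control diet, 3.06 and 17.5 with high-fat diet) and proliferation (477 and 519, then 519 and 565 CPM). Pcna alone held most of the proliferation sum (422 and 462, then 464 and 505 CPM). Of the 8 proliferation genes 6 overlapped between the diets.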

Additional observations from a re-analysis of the deposited data

How the results depend on the processing

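No synthetase passed an adjusted p of 0.05 in any of 14 alternative fits, 13 planned and 1 (correction for GC content and exon length) chosen after seeing the data; the lowest adjusted p was 0.0563 (Nars, DESeq2). Of the cytosolic genes 14 of 20 kept their direction in all of these, and of the mitochondrial genes 7 of 16. The number of all genes called, 78, became 356 with DESeq2, 522 with no filter on low counts, 46 with a CPM filter and 28 by limma-voom, and ran from 3 (without control replicate 2) to 823 (without high-fat replicate 1) when each library was left out, with 16 without control replicate 1 and 452 without high-fat replicate 2. Each such fit leaves 1 library in a diet, assumed to vary like the other diet's. The replicate block gave 113 calls and none among the synthetases. Same-numbered libraries deviated together at r = 0.089 across genes. The titles give only a replicate number, and whether same-numbered libraries share a batch was not tested. Leaving out each library, the cytosolic median ran from 0.16 to 0.26, the mitochondrial from -0.12 to 0.036 and their difference (0.23) from 0.15 to 0.34; the cytosolic median was 0.19 after correction for GC content and exon length. The CPM filter kept 14 of 16 mitochondrial genes. Without Lars2, chosen after seeing the data, the mitochondrial median was 0.0054.

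Directions changed in the genes that follow, among them Lars2 and Vars, whose values with all libraries were the lowest of their groups (-1.78 and -0.29); the cause was not tested. After that correction the log2 fold changes were -0.0041 (Farsb), 0.052 (Vars), -0.045 (Mars2), -0.040 (Nars2), 0.18 (Sars2), 0.21 (Vars2) and -0.020 (Aimp1). Tars2 was at -0.0050 with upper-quartile normalization, -0.0019 after the CPM filter, -0.00018 over RefSeq genes alone and -0.00050 with the replicate block. Leaving out each library, ranges that crossed 0 were -0.076 to 0.38 (Aars), -0.033 to 0.13 (Kars), -0.086 to 0.24 (Mars), -0.57 to 0.056 (Vars), -0.031 to 0.089 (Wars), -0.0024 to 0.12 (Ears2), -0.25 to 0.020 (Fars2), -0.14 to 0.079 (Iars2), -2.93 to 0.0050 (Lars2), -0.060 to 0.13 (Nars2), -0.29 to 0.25 (Sars2), -0.14 to 0.14 (Tars2), -0.27 to 0.16 (Vars2), -0.11 to 0.23 (Aimp1), -0.0094 to 0.11 (Aimp2) and -0.25 to 0.068 (Gatb). With 2 libraries per diet, the 10 cytosolic genes at an unadjusted p of 0.05 had differences of 18.4% to 27.8%. Their standard errors were 0.09 to 0.11 log2, and none passed over all genes. Some other synthetases had larger standard errors, such as 0.34 for Aars2. The power to detect changes of this size was not tested.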
